A study of Arabidopsis thaliana with 12 samples.

Results

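The genes described here are 3 genes of the plant cell wall that each had a feature of their own on an Arabidopsis thaliana array, out of 691 genes with such a feature. They are AT4G18180, a pectin lyase-like protein, GH9B12 (locus AT2G44570), a glycosyl hydrolase of family 9, and AT3G57630, of the exostosin family. They were chosen by their normalized log2 change between the groups in these same samples, among the 12 strongest rises and the 12 strongest falls of named genes. That difference is therefore given as a description, with no test. The array held 3439 features, of which 692 carried 1 gene in GEO's platform annotation, 870 carried several and 1877 had none given. All plants were wild type of the ecotype Wassilevskija: in 6 samples the plants had received water and in 6 they had received 100 mM proline over 3 h, a dose that per the labels was meant to bring proline in the cells to toxic levels. No time is stated in the titles of the water samples, so effects of time and of proline cannot be told apart. No plant part is named in the labels, and none of 37 marker genes of pollen, seed, root, leaf, flower and guard cell had a feature of its own. In whole-tissue RNA, fewer cells of a type and less RNA per cell cannot be told apart.

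The plant cell wall is a network of cellulose, hemicelluloses, pectins and structural glycoproteins. Enzymes that cut or build these polymers change how stiff the wall is and how the cell grows. Proteins of the pectin lyase-like fold include polygalacturonases and other enzymes that act on pectin. Plant glycosyl hydrolases of family 9 are endoglucanases. Their class B members are secreted enzymes, while class C members carry a cellulose-binding module besides. AT3G57630 is known as ExAD, an enzyme that adds arabinose to the sugar chains on the hydroxyproline residues of extensins. Extensins are wall glycoproteins rich in hydroxyproline, which is made from proline after the protein is synthesised.

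The pectin lyase-like gene was high in every proline sample, the endoglucanase gene was low in every proline sample, and the exostosin gene was low in 5 of 6. None of the 3 genes was listed at 0 on any array, although between 453 and 534 features per array were. Values are deposited relative intensities, on a linear scale with a ceiling of 100.

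AT4G18180 had an intensity of 0.0822 in the lowest water sample, 0.109 at the median and 0.133 in the highest. After proline the lowest, median and highest values were 2.47, 2.82 and 2.96. The groups lay far apart, and the lowest proline value was many times the highest water value. The mean went from 0.110 ± 0.0199 with water to 2.76 ± 0.212 with proline (SD, n = 6 each), a ratio of 25.1. Taken by replicate number, which both groups share in the labels, the ratio of proline to water ran from 21.9 in replicate 6 to 30.7 in replicate 4. The coefficient of variation was 18.1% in water and 7.70% after proline, so the scatter was smaller, relative to the mean, where the gene was high. On the normalized log2 scale the change was 4.60 ± 0.14 (SE). Of 2861 features with enough values to be fitted, 2 had a larger rise.

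GH9B12 had intensities of 0.260, 0.271 and 0.299 as the lowest, median and highest in water. After proline these were 0.0656, 0.109 and 0.130. No sample of one group reached the range of the other. The water mean was 0.274 ± 0.0139 and the proline mean 0.106 ± 0.0215 (SD, n = 6 each), a ratio of 2.59. The water samples were close together, with a coefficient of variation of 5.08%, against 20.4% after proline. Replicate 4 was the lowest of the proline samples, and there the ratio of water to proline was 3.96. In the other numbers this ratio lay between 2.12 in replicate 5 and 2.70 in replicate 6. On the normalized log2 scale the change was -1.51 ± 0.13 (SE), and 56 of the 2861 features had a larger fall.

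AT3G57630 was measured near the lower end of the scale and with much more scatter. Its lowest, median and highest intensities were 0.0324, 0.0507 and 0.0642 in water and 0.00192, 0.0155 and 0.0494 after proline. Proline replicate 1 was the highest of its group and exceeded 3 of the 6 water samples, so the groups overlapped. The other 5 proline samples were below the lowest water sample. The mean was 0.0508 ± 0.0126 with water and 0.0173 ± 0.0173 with proline (SD, n = 6 each), so that after proline the SD was as large as the mean. By replicate number, proline was 1.10 times water in replicate 1. Water was 29.4 times proline in replicate 2 and 11.8 times in replicate 5. In the remaining numbers it was between 3.37 and 3.50 times. The normalized log2 change was -1.86 ± 0.68 (SE). The SD within groups on this scale was 1.29, against 0.231 for AT4G18180, 0.223 for GH9B12 and a median of 0.286 over the fitted features. Only 3.25% of fitted features scattered more than AT3G57630.

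**Figure D1:**
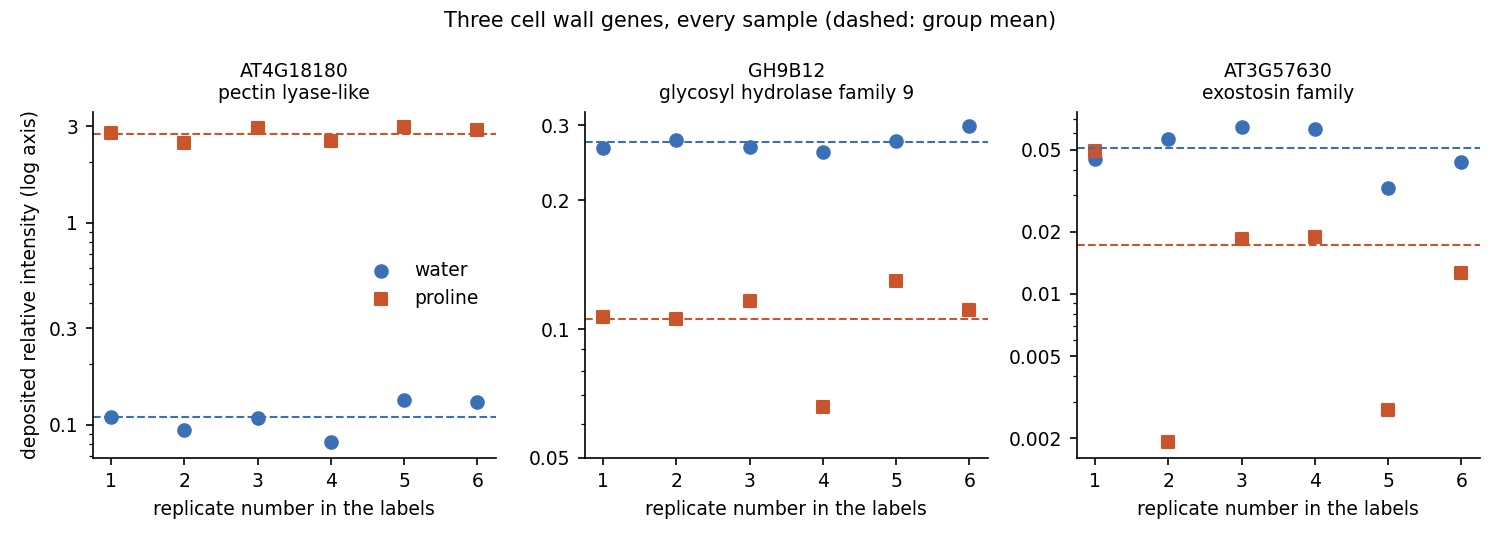
Deposited relative intensity (log axis, a separate range in each panel) of AT4G18180, GH9B12 and AT3G57630 in each water sample (circles) and proline sample (squares), by the replicate number in the labels; dashed lines are group means. The groups are apart for AT4G18180 and GH9B12, while proline replicate 1 of AT3G57630, at 0.0494, lies among the water samples.

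As background, a large share of all features differed between the groups. By limma with Benjamini-Hochberg adjustment, 44.1% of the 2861 fitted features passed an adjusted p of 0.05, with 18.3% higher and 25.9% lower after proline. With zeros counted in the deposited values, proline was above water in every sample for 15.4% of the 3238 features not at 0 on all arrays, as for AT4G18180. It was below water in every sample for 7.20%, as for GH9B12. The median change of the fitted features was -0.12 on the log2 scale. Which direction prevailed depended on the scaling. As deposited, 702 features were called higher and 483 lower, with a median change of 0.057. After cyclic loess these counts were 598 and 605. The genes were picked for their change, so nothing further is read from these shares. Among the named genes past the threshold, AT4G18180 was the 2nd largest rise, AT3G57630 the 6th largest fall and GH9B12 the 9th largest fall. The last gene inside the 12 rises was at 2.25 and the first outside at 2.20, and for the falls these values were -1.41 and -1.37.

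**Figure D2:**
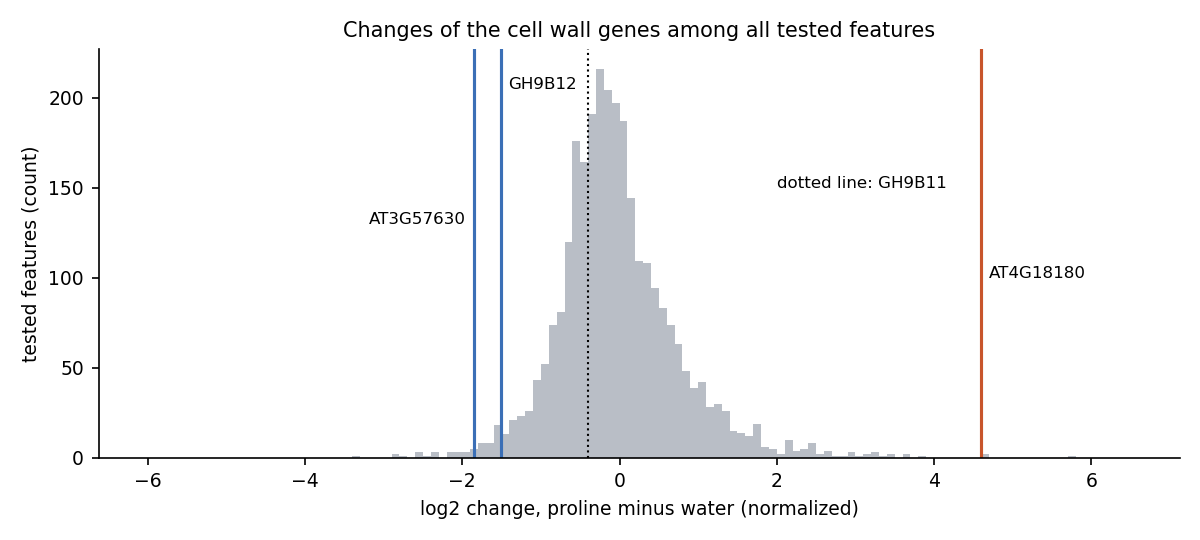
Histogram of the normalized log2 change (proline minus water, x axis) of the 2861 fitted features (count, y axis), with vertical lines at AT3G57630 (-1.86), GH9B12 (-1.51), GH9B11 (-0.41, dotted) and AT4G18180 (4.60). AT4G18180 lies far out in the upper tail, and GH9B11 is close to the centre at -0.12.

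Of the cell wall genes found by words in their names, 4 others had a feature of their own: GH9B11, GH9B16 and GH9B8, all class B endoglucanase genes, and CSLA01, a cellulose synthase-like gene of a family that makes mannans. The word lists for pectin, hemicellulose, wall proteins and lignin held no gene with its own feature. CSLA01 was counted under cellulose, the first list that its name matched. The words were sought in gene symbols and synonyms only. They did not find AT4G18180 or AT3G57630 either, whose entries in the gene table hold no descriptive name. Any other wall gene listed without such a name would be missed too, so the lists do not cover all wall genes on the array. Of the 4, 3 could be fitted. Of these, 1 fell and 2 did not pass, beside a background of 25.9% of features that fell, and their median log2 change was -0.36, against -0.12 over all fitted features.

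GH9B11, which lies next to GH9B12 on chromosome 2 in the TAIR10.1 gene table, was the one that fell. Its lowest, median and highest intensities were 0.134, 0.162 and 0.204 in water and 0.109, 0.123 and 0.150 after proline. Proline was lower than water in 6 of 6 replicate numbers, although 2 water samples lay below the highest proline sample. The normalized log2 change was -0.41 ± 0.13 (SE; limma, adjusted p = 0.0270), a fold of 1.32. The call did not hold under every setting. It was lost when successive replicates (1 with 2, 3 with 4, 5 with 6) were averaged within groups (adjusted p = 0.126) or taken as a random block (adjusted p = 0.133), after cyclic loess (adjusted p = 0.0571), and without water replicate 4, proline replicate 4 or proline replicate 6 (adjusted p of 0.0532 to 0.0580). It was also lost without replicates 1 and 2 of both groups (adjusted p = 0.0936) or without 3 and 4 (adjusted p = 0.123).

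GH9B16 had a mean of 0.202 ± 0.0158 with water and 0.177 ± 0.0484 with proline (SD, n = 6 each). Its proline replicate 3, at 0.268, was above all water samples, and the other proline values were 0.185 or less. The normalized log2 change of -0.36 ± 0.14 (SE) did not pass (limma, adjusted p = 0.0594). It passed with the replicate number as a block (adjusted p = 0.0349), after median scaling (adjusted p = 0.0406), without proline replicate 3, where the change was -0.48 (adjusted p = 0.00370), and when numbers 3 and 4 were left out of each group (adjusted p = 0.0205). CSLA01 was listed at 0 in proline replicates 3 and 4. Its mean was 0.112 ± 0.0287 in water and 0.0605 ± 0.0505 after proline with the zeros counted. Without them the log2 change was -0.16 ± 0.26 (SE; limma, adjusted p = 0.651). This value was unsteady, with single samples left out between -0.33 (water replicate 1) and -0.057 (proline replicate 5), and at -3.20 where each array's lowest value replaced its zeros. It passed under none of its 25 alternatives, with adjusted p of 0.103 to 0.962. GH9B8 was dim and listed at 0 in 1 water and 3 proline samples, so it was not fitted. Its mean was 0.0185 ± 0.0138 with water and 0.00534 ± 0.00931 with proline, zeros counted (SD, n = 6 each). An exact permutation test (924 arrangements) gave a two-sided p = 0.0736 (0.110 adjusted over the 3 cell wall features that could not be fitted). The adjustment also counted the feature annotated to GH9B9 to GH9B12, which is only described below. This permutation test treats all samples as separate, although samples of the same number correlated, as did successive replicates within a group. Whether the numbers pair the samples was not settled.

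GH9B12 is the last of 4 family members that follow each other along chromosome 2, GH9B9, GH9B10, GH9B11 and GH9B12. Besides GH9B12's own feature, 3 others carry these genes, and each of the 3 had a lower mean after proline and a lower value in 6 of 6 replicate numbers. Of the 3238 features not at 0 on all arrays, 46.5% had a lower mean and 16.4% were lower in all 6 numbers. A feature annotated to all 4 of them was not used in choosing the genes, but was singled out after its values were seen. It is therefore described with no p-value. It had 0.0864, 0.106 and 0.147 as its lowest, median and highest intensities in water. After proline it was listed at 0 in replicates 1, 2, 4 and 5, at 0.0108 in replicate 6 and at 0.0428 in replicate 3. No proline sample reached the lowest water sample. The means were 0.109 ± 0.0230 and 0.00894 ± 0.0171 (SD, n = 6 each).

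The feature annotated to GH9B9 and GH9B10 had a mean of 0.0764 ± 0.0186 with water and 0.0317 ± 0.0291 with proline (SD, n = 6 each). Proline was lower in 6 of 6 replicate numbers, but proline replicate 5 was at the level of the water samples. The log2 change of -1.78 ± 0.78 (SE) did not pass (limma, adjusted p = 0.0840). It passed as deposited (adjusted p = 0.0486), after median scaling (adjusted p = 0.0299), with the pairs averaged (adjusted p = 0.0245) and without proline replicate 5 (adjusted p = 0.0384). Which of the neighbouring genes gave the signal on the shared features cannot be told apart, and how far the features of GH9B11 and GH9B12 also bind each other's RNA was not tested.

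**Figure D3:**
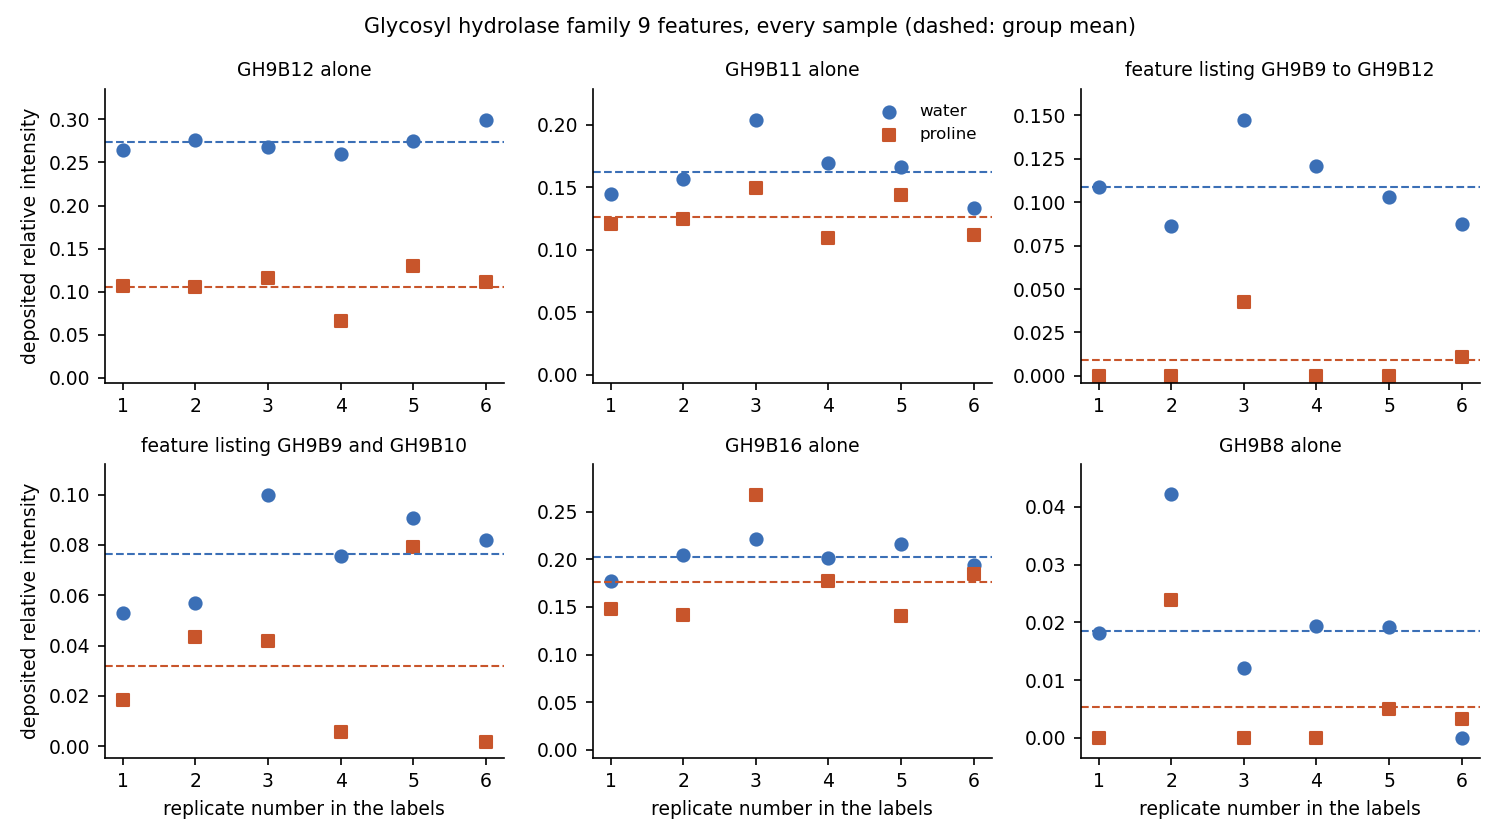
Deposited relative intensity (linear axis from 0) of 6 features of glycosyl hydrolase family 9 in each water sample (circles) and proline sample (squares), by replicate number; dashed lines are group means. In the 4 features of the chromosome 2 neighbours each proline sample is below the water sample of its number, while GH9B16 and GH9B8 each have 1 number where it is above. The shared features of GH9B14 and GH9B15, of GH9B16 to GH9B18 and of GH9C2 and GH9C3 are not drawn. Their deposited means were all higher after proline, so the panels do not stand for the whole family.

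Counting these shared features, 6 carried several genes that were all of family 9. Of them, 4 were fitted and none passed the test (limma), beside 41.5% of all fitted features with several genes. At an unadjusted p under 0.05 there were 3 of the 4, against 51.4% of all fitted features, and their median log2 change was 0.033. The feature annotated to GH9B16, GH9B17 and GH9B18 was at 0.53 ± 0.20 on the log2 scale (SE), opposite in sign to GH9B16 alone, and did not pass (limma, adjusted p = 0.0526). It stayed so in 17 of 26 alternatives and passed in the others, as deposited among them (adjusted p = 0.0460). Its mean was 0.111 ± 0.0369 with water and 0.152 ± 0.0141 with proline (SD, n = 6 each). The 2 features annotated to GH9B14 and GH9B15 had higher means after proline, 0.180 ± 0.0519 against 0.141 ± 0.0385 and 0.136 ± 0.107 against 0.0668 ± 0.0851. The first had a log2 change of 0.29 (limma, adjusted p = 0.415) and the second, with 4 zeros, was not fitted (exact permutation test, p = 0.240). The feature of the class C genes GH9C2 and GH9C3 had a normalized log2 change of -0.22 (limma, adjusted p = 0.0715) and one of 0.11 as deposited (adjusted p = 0.344), so its direction depended on the scaling.

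Beyond this family, 3 features carried several genes that all matched the cell wall words, and none of them passed the test (limma), with 1 at an unadjusted p under 0.05. A feature of 4 cellulose synthase-like C genes, a family that builds the backbone of xyloglucan, was at -0.85 ± 0.34 on the log2 scale (SE; limma, adjusted p = 0.0600). This call was the same in 21 of 26 alternatives. The feature passed with the replicate number as a block (limma, adjusted p = 0.0298) and after median scaling (0.0173). It also passed without water replicate 2 (0.0145), without water replicate 4 (0.0499) and without replicates 1 and 2 of both groups (0.0246). Another feature of cellulose synthase-like C genes was at -0.097 (limma, adjusted p = 0.585). One of expansin-like genes, relatives of the proteins that loosen walls, was at -0.22 (limma, adjusted p = 0.324). Of all 14 shared features with at least 1 cell wall gene, 11 were fitted and 2 fell, beside 24.1% of all fitted features with several genes that fell. Each of the 2 also carried a gene outside the word lists.

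The genes most like each of the 3 were found among 572 genes with their own feature and at least 10 shared arrays. Likeness was the root mean square difference of normalized log2 values, each gene centred on its own mean, so a small value means a like profile over the samples. This profile is mostly the difference between the groups, so the likeness is a description. For AT4G18180 the nearest were AT1G76450, a PsbP-domain protein of the thylakoid (0.504 over 12 arrays), the guanylate kinase gene AT3G06200 (0.706) and the pentatricopeptide repeat gene AT5G15280 (0.916 over 10 arrays), against a median of 2.39 over all compared genes. Their log2 changes were 3.69, 3.29 and 5.72, so all 3 are among the strongest rises. For GH9B12 the nearest were the plastid fibrillin gene AT2G35490 (0.272), AT1G03810 (0.278) and AT2G33180 (0.301), against a median of 0.849. Their changes were -1.41, -1.37 and -1.95. For AT3G57630 the nearest were AT2G43990 (0.728), ETFQO (0.816), a carrier of electrons into mitochondrial respiration, and AT3G13120 (1.04), against a median of 1.52. Their changes were -1.42 ± 0.33, -1.29 ± 0.70 and -0.45 ± 0.42 (SE). All these like genes were picked by their profile over the same samples, so their changes are given with no test. No neighbouring locus within 3 genes of AT4G18180 or AT3G57630 had a feature of its own.

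The changes of the 3 genes kept their direction in all 26 other ways of processing that were run. Since the genes were chosen for large changes, this was close to given beforehand. For genes with a value on every array, other filters, a replicate block, averaged pairs or a random block cannot move the estimate, only its SE. Averaged within the numbers 1 and 2, 3 and 4, and 5 and 6, the log2 change was 4.57, 4.87 and 4.37 for AT4G18180 and -1.41, -1.75 and -1.37 for GH9B12. For AT3G57630 it was -1.81, -1.39 and -2.36. The SE for this gene was 1.13 when such pairs were taken as a random block, against 0.68 as reported. The size of the change of AT3G57630 ranged most widely, from -2.47 with median scaling to -0.39 when 0.05 was added to every value before the logarithm. That amount is about the water level of the gene. Adding it also moved GH9B12 to -1.16 and AT4G18180 to 4.08.

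**Figure D4:**
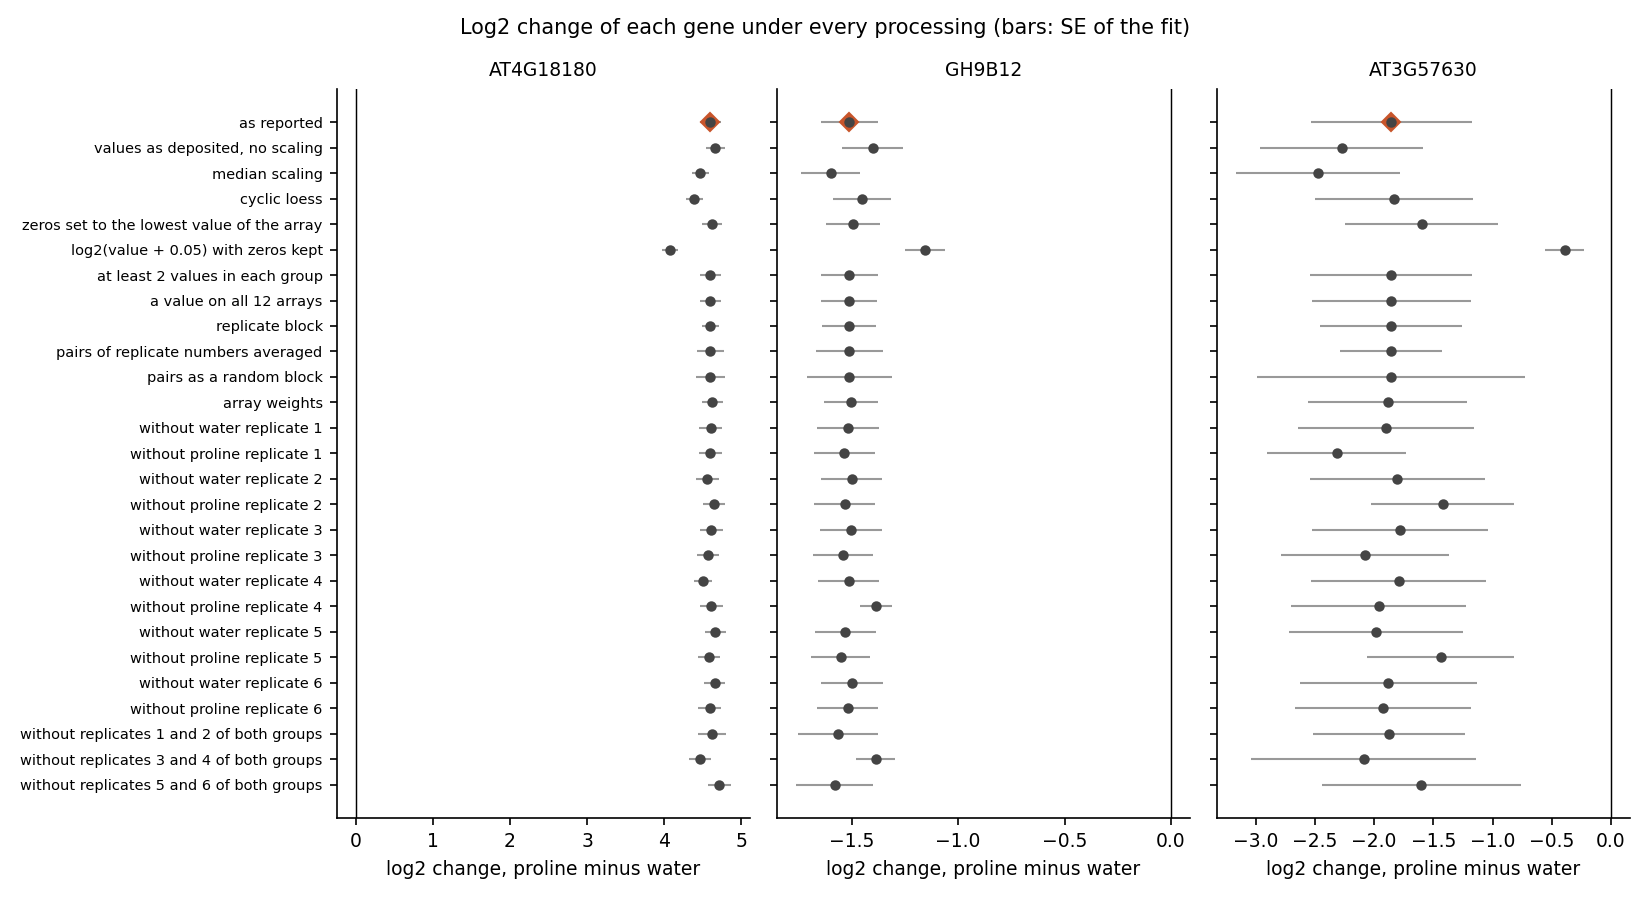
Log2 change (proline minus water, x axis, a separate range in each panel) of AT4G18180, GH9B12 and AT3G57630 as reported (diamond) and under each of 26 alternatives (y axis); bars are the SE of the fit and the vertical line is at 0. All points stay on one side of 0, from 4.08 to 4.72, from -1.60 to -1.16 and from -2.47 to -0.39.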

How the data were processed

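RNA was measured on 12 one-colour arrays, 6 per group by the sample titles. The deposited values are relative intensities that run from exact 0 to 100. The sources used here do not give the authors' background correction or scaling, or the signal over background. The number of arrays limits the precision. Whether replicates came from separate plants is not stated, and the p-values cover the spread of these samples only, which may be a technical one. Gene names come from an old platform annotation of GEO and were used for features with 1 gene. Of these 692, 690 matched the TAIR10.1 gene table, and no sequences were used here.

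Intensities were taken to log2 with zeros as missing and quantile normalized. Features with at least 4 values in each group were fitted with limma 3.58.1 (lmFit and eBayes, no block, two-sided) in R 4.3.3, with Benjamini-Hochberg adjustment over all 2861. Random blocks used statmod 1.5.0. The fit was tested on simulated data. Of 3 cell wall features that could not be fitted, 1 is only described and the others were compared by an exact permutation test. Adjustment of that test counted all 3. The genes, the word lists, the rule for named genes (the 3 genes, every cell wall list gene and the 3 most alike) and the alternatives were chosen with earlier results of these data known.

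Both groups carry replicate numbers 1 to 6. After group means were subtracted, a water and a proline sample of the same number correlated at 0.184 to 0.403 over 2674 features. Samples of different numbers were not compared in this way, so whether the numbers pair the samples was not settled. The labels do not say so. Within a group, successive numbers also correlated (mean correlation 0.206).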

Additional observations from a re-analysis of the deposited data

Results flagged for a closer look

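Among 47 groups of 4 to 6 normalized log2 values, of the genes and features named above, 2 had an extreme sample beyond Dixon's limit, where chance gives about 2.4. GH9B12 was at -3.85 in proline replicate 4, with the other 5 proline samples between -3.19 and -3.03. Without that sample its log2 change was -1.39 ± 0.075 (SE), and its SE as reported was 0.13. The shared feature of 4 cellulose synthase-like C genes was at -4.0, also in proline replicate 4, with the others between -3.32 and -2.96.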

How the results depend on the processing

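Scaling, filtering, zeros, array weights and the handling of replicates were varied, and each sample and each pair of successive numbers was left out. The number of features called stayed within 1.5 times of 1263 in 25 of 26 alternatives and was 686 with the pairs averaged. Leaving out single samples gave 1189 to 1219. The replicate block cannot move the log2 changes of the 3 genes, which have a value on every array. With it, GH9B16 passed besides GH9B11. Of the 4 other cell wall genes, 1 was called as reported, 2 after median scaling and with the replicate block, and 0 after cyclic loess, with pairs of successive numbers averaged or as a random block, and without replicates 1 and 2 of both groups. Without single samples 0 to 2 were called. The causes were not tested. Adding 0.05 before the logarithm gave log2 changes of 4.08 for AT4G18180, -1.16 for GH9B12 and -0.39 for AT3G57630, since the added amount shrinks changes of dim features. Without single samples they were 4.51 to 4.66, -1.55 to -1.39 and -2.32 to -1.42. Signs turned for GH9C2 and GH9C3 as deposited (0.11), for GH9B14 and GH9B15 without replicates 5 and 6 (-0.16), for the second cellulose synthase-like C feature as deposited (0.14) and after cyclic loess (0.0021), and for AT3G13120 without proline replicate 1 (0.065, with -0.70 to 0.065 over single samples left out) or replicates 1 and 2 (0.16). None of these shared features passed as reported.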
